A study of Mus musculus with 12 samples.

Results

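F-box proteins are the substrate receptors of SCF ubiquitin ligases, and their transcripts were followed in the mouse cell line GC-2 under hypoxia and under MLN4924. The genes were taken by name: symbols that begin with Fbxl, Fbxo or Fbxw followed by a number, without Fbxo5, together with Skp1, Skp2 and Btrc, which encode the adaptor of the ligase and the receptors SKP2 and beta-TrCP1. A gene was kept where it reached 1 FPKM (a fragment count relative to transcript length and to library size) in at least 3 of the 12 libraries. Of 59 symbols that matched the pattern, 49 passed and 10 did not, and the 3 genes added by name passed, so that 52 genes were described among 12311 tested and 24770 listed. They were 15 receptors of the FBXL family, which carry leucine-rich repeats (Skp2 included), 9 of the FBXW family, which carry WD40 repeats (Btrc included), 27 of the FBXO family, which carry other domains or none that is recognised, and Skp1. Because low genes had to reach 1 FPKM somewhere, a gene expressed in a single group could enter through that group.

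An SCF ligase is built on the scaffold CUL1, which holds the RING protein RBX1 at its C-terminal end and SKP1 at its N-terminal end. SKP1 binds the F-box of 1 receptor at a time, the receptor binds the protein to be ubiquitinated, and the receptors compete for the same core. The core works when the ubiquitin-like protein NEDD8 is attached to CUL1. MLN4924, also called pevonedistat, inhibits the enzyme that activates NEDD8 and so blocks this step for all cullins. Oxygen enters the family through FBXL5, whose hemerythrin domain binds iron and oxygen and which controls the iron regulatory protein IRP2.

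The 4 groups of wild-type cells, with 3 libraries each, were DMSO (the solvent) in normoxia, DMSO in hypoxia, MLN4924 in normoxia and MLN4924 in hypoxia. The inhibitor was used at 1 µM, hypoxia was 1% O2, and the time was 24 h in every group. All groups came from a single cell line, labelled as type B spermatogonia, and the libraries within a group are called biological replicates in the series text. The cell type label counts upward over the samples while the titles name GC-2 throughout, and identity was not tested. In these bulk libraries a lower level in every cell and fewer cells that express a gene cannot be told apart.

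Markers of germ cells were scarce. Of 14 spermatogonial and germ cell markers, 8 were listed and 2 passed the minimum, Gfra1 at 5.58 ± 0.712 and Uchl1 at 12.8 ± 1.82 FPKM in DMSO normoxia, while Kit reached at most 0.04, Ddx4 at most 0.06, Sohlh1 at most 0.05 and Sycp3 at most 0.35 FPKM in any library. Col1a1 and Vim, which are typical of fibroblasts and other mesenchymal cells, lay at 617 ± 7.14 and 743 ± 14.0 FPKM (mean ± SD, n = 3) in DMSO normoxia, while of the same list Thy1 reached at most 0.11 and Dcn at most 0.78 FPKM in any library. The summed fibroblast and peritubular list, 7 of 10 tested, ran from 1972 to 1981 FPKM in DMSO normoxia, 2545 to 2651 in DMSO hypoxia, 1656 to 1684 in MLN4924 normoxia and 2052 to 2108 in MLN4924 hypoxia, so this sum moved with the groups, and its part in the results below was not tested. In DMSO the sum was carried by Col1a1, Col1a2 and Vim. Acta2 moved against it, from 52.5 ± 2.30 to 27.9 ± 3.80 FPKM with hypoxia in DMSO and to 371 ± 8.38 with MLN4924 in normoxia. In the MLN4924 groups Acta2 was itself a large part of the sum. In MLN4924 normoxia Col1a1 lay at 366 ± 0.635 and Col1a2 at 341 ± 2.90 FPKM, and in MLN4924 hypoxia Acta2 lay at 406 ± 15.8 FPKM. Of the other lists, 1 of 11 spermatocyte and spermatid markers, 5 of 9 Sertoli, 2 of 7 Leydig and 2 of 8 macrophage and leukocyte markers were tested. Among them Clu of the Sertoli list lay at 30.1 ± 3.75, Nr5a1 of the Leydig list at 24.96 ± 1.04 and Star, also of the Leydig list, at 10.7 ± 0.564 FPKM in DMSO normoxia, and Star at 2.17 ± 1.24 in MLN4924 normoxia. The summed Sertoli list ran from 35.6 to 51.99 FPKM over the 12 libraries, the Leydig list from 20.8 to 37.7, the macrophage and leukocyte list from 9.68 to 15.3 and the spermatocyte and spermatid list up to 2.24, and no defining marker listed was at 0 in all 12 libraries. DMSO hypoxia replicate 1 stood apart. It summed to 633597 FPKM, where the other 11 libraries summed to between 530452 and 557779, and its mean Spearman correlation with its own group was 0.926, and in the other 3 groups no library was under 0.9765. Each library was also set against the mean of the other 2 of its group. Across genes, which are not independent, this deviation had a Spearman correlation of -0.278 with transcript length in DMSO hypoxia replicate 1. The correlation was 0.211 and 0.233 in the other 2 libraries of the group, whose reference included replicate 1, and -0.0293 to 0.0337 in the other groups. The part of this in the DMSO hypoxia results was not tested. In DMSO hypoxia replicate 1, 10 of the 52 genes lay more than 0.5 log2 units from the mean of the other libraries of the group, against 1 to 5 genes in the other 11 libraries. Counts of calls over the 52 genes and over the related lists are therefore also given without that replicate.

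The adaptor gene was the highest by far. Skp1 lay at 182, 170.5 and 178 FPKM in DMSO normoxia, 213, 148 and 147 in DMSO hypoxia, 187, 192 and 179 in MLN4924 normoxia and 155, 162 and 151 in MLN4924 hypoxia. The libraries of MLN4924 hypoxia lay below every normoxic library, and in DMSO hypoxia the library that stood apart lay above all others while the remaining libraries lay below all normoxic ones. With all libraries Skp1 passed no comparison; the log2 fold change with hypoxia was -0.083 in DMSO (95% interval -0.35 to 0.18) and -0.25 in MLN4924 (95% interval -0.52 to 0.0079; limma with Benjamini-Hochberg adjustment, adjusted p = 0.141). Without DMSO hypoxia replicate 1 both hypoxia comparisons passed, at -0.26 (adjusted p = 0.0011) and -0.25 (adjusted p = 0.000526). With MLN4924 the difference was 0.076 in normoxia (95% interval -0.19 to 0.34) and -0.10 in hypoxia (95% interval -0.36 to 0.17).

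The receptor transcripts were spread over a wide range of low to moderate levels. Their mean over the 12 libraries had a median of 6.69 FPKM; 21 of 51 lay at or above 10 FPKM, 15 between 5 and 10 and 15 under 5, of which 6 lay under 2. The highest were Fbxo2, whose product binds N-glycans of misfolded glycoproteins, at a mean of 23.8, Fbxo22, a receptor for the histone demethylase KDM4A, at 23.1, Skp2, the receptor for the cell cycle inhibitor p27, at 20.9, Fbxo25 at 20.4 and Fbxw11, which encodes beta-TrCP2, at 20 FPKM. The rank of Fbxo2 included a value of 40.04 FPKM in DMSO hypoxia replicate 1. In DMSO and MLN4924 normoxia Fbxo22 had the higher mean, at 28.3 and 28.0 FPKM against 26.8 and 19.2, and in the hypoxic groups Fbxo2 did. The lowest were Fbxl21, Fbxl2 and Fbxo47, at 0.746, 0.936 and 0.97 FPKM. Fbxl21 sat just inside the minimum with 3 libraries at or above 1 FPKM, and Fbxo24 just outside it, with 1 library at 1.57 FPKM, the highest value among the 10 genes left out. Those 10 were Fbxo24, Fbxl16, Fbxo39, Fbxl22, Fbxw10, Fbxo15, Fbxo43, Fbxo16, Fbxl7 and Fbxw26. Of the 52 genes, 45 reached 1 FPKM in all 12 libraries.

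Summed over the 51 receptors, the level was 450 ± 10.9 FPKM in DMSO normoxia, 482 ± 32.7 in DMSO hypoxia, 427 ± 5.54 in MLN4924 normoxia and 433 ± 6.10 in MLN4924 hypoxia (SD, n = 3). Every MLN4924 library lay below every DMSO library in this sum, the nearest at 439.7 against 443.65 FPKM. As a share of the total FPKM of each library they overlapped. MLN4924 hypoxia replicate 3 had 0.0809% and DMSO normoxia replicate 1 had 0.0801%. DMSO hypoxia replicate 1 had the highest sum, at 518 FPKM, and the lowest share of its group, at 0.0818%. Per unit of Skp1, the summed receptor level was 2.55 ± 0.0992, 2.91 ± 0.408, 2.30 ± 0.104 and 2.78 ± 0.132 in the same order. The ratio in MLN4924 hypoxia lay above that in MLN4924 normoxia in every library, while in DMSO the library that stood apart, at 2.44, fell within the range of normoxia. Scatter differed between genes: 13 of 51 receptors had a coefficient of variation over 0.3 in at least 1 group, among them Fbxw7, Fbxw8, Fbxo34 and Fbxo6.

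**Figure D1:**
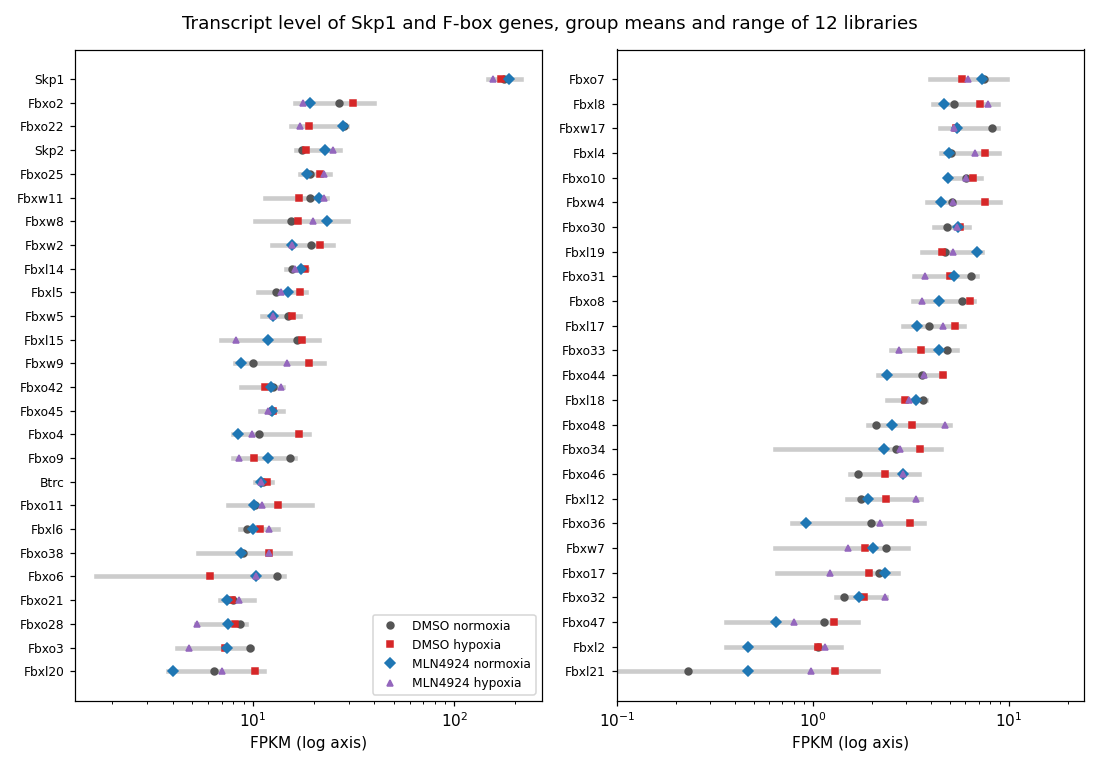
Transcript levels of Skp1 and 50 of the F-box genes, in FPKM on a log axis, ordered by the mean over 12 libraries. Symbols give the means of the 4 groups (n = 3) and grey bars the range over all 12 libraries, drawn from the left edge for Fbxl21, whose lowest value was 0; Skp1 lay above every receptor.

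Hypoxia without the inhibitor raised 8 of the 52 genes and lowered 6. The 8 were Fbxw9, Fbxl20, Fbxl4, Fbxl5, Fbxl21, Fbxo4, Fbxo44 and Fbxw4, and the 6 were Fbxo22, Fbxo9, Fbxo3, Fbxo33, Fbxo6 and Fbxw17. The 14 calls were 26.9% of the genes, against 33.2% of all tested genes; the shares were 15.4% higher and 11.5% lower, against 13.8% and 19.4%. The split depended on the scaling of the libraries: 12 rose and 5 fell with median-of-ratios scaling and 15 rose and 4 fell with quantile normalization, and over all tested genes the share of calls that were higher went from 41.5% to 51.7% and 50.8%. The median log2 fold change was 0.11 over the 52 genes and -0.08 over all tested genes. The libraries of DMSO hypoxia and DMSO normoxia did not overlap for 22 of the 52 genes, against 45.2% of all tested genes. Without DMSO hypoxia replicate 1 the counts were again 8 and 6, against 38.7% of all tested genes, and 11 of the 14 calls were shared; Fbxw4, Fbxo33 and Fbxl5 dropped out and Skp1 (lower), Fbxo48 and Fbxo10 (higher) came in.

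With the inhibitor present, hypoxia raised 11 and lowered 7 of the 52 genes. The 11 were Fbxl20, Fbxw9, Fbxl4, Fbxo44, Fbxo36, Fbxo48, Fbxl8, Fbxl12, Fbxl2, Fbxo32 and Fbxo25, and the 7 were Fbxo22, Fbxo3, Fbxo33, Fbxo9, Fbxl15, Fbxo28 and Fbxo31. The 18 calls were 34.6% of the genes, against 28.2% of all tested genes, with 21.2% higher against 11.7% and 13.5% lower against 16.5%. The median log2 fold change was 0.04, against -0.05 over all tested genes. The libraries of the groups did not overlap for 26 of the 52 genes, against 53.3% of all tested genes. Without DMSO hypoxia replicate 1, which enters this comparison only through the shared estimate of the spread, 12 rose and 10 fell, against 42.6% of all tested genes; all 18 calls were shared.

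Both hypoxia comparisons, which share no library, raised Fbxw9, Fbxl20, Fbxl4 and Fbxo44 and lowered Fbxo22, Fbxo9, Fbxo3 and Fbxo33. The 4 shared rises were 50% of the 8 in DMSO and 36.4% of the 11 with MLN4924, where the shares over all tested genes were 55.5% and 65.6%. The 4 shared falls were 66.7% of 6 and 57.1% of 7, where the shares over all tested genes were 57.2% and 67.3%. No gene was called in opposite directions.

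Fbxw9, a WD40-repeat receptor, showed the clearest rise. It lay at 9.87, 9.8 and 10.3 FPKM in DMSO normoxia, 22.6, 17.8 and 16.8 in DMSO hypoxia, 8.11, 8.86 and 9.15 in MLN4924 normoxia and 14.5, 14.4 and 15.2 in MLN4924 hypoxia. Every hypoxic library lay above every normoxic library, with the library that stood apart the highest. The log2 fold change with hypoxia was 0.86 ± 0.10 (adjusted p = 0.00013) in DMSO and 0.70 ± 0.10 (adjusted p = 0.000616) with MLN4924 (limma, ± SE), and 0.73 (adjusted p = 2e-05) in DMSO without that library.

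Fbxl20, whose product is known in the mouse from the synapse, where it controls the turnover of the active zone protein RIM1, was called in all 4 pairwise comparisons. It lay at 6.55, 6.19 and 6.57 FPKM in DMSO normoxia, 9.13, 10.1 and 11.4 in DMSO hypoxia, 3.78, 4.27 and 3.96 in MLN4924 normoxia and 6.81, 7.65 and 6.63 in MLN4924 hypoxia. The groups were ordered without overlap, with MLN4924 normoxia lowest and DMSO hypoxia highest. It rose with hypoxia by 0.59 ± 0.09 log2 units (adjusted p = 0.00086) in DMSO and by 0.68 ± 0.09 log2 units (adjusted p = 0.000422) with MLN4924. It fell with MLN4924, with log2 fold changes of -0.57 ± 0.09 (adjusted p = 0.00162) in normoxia and -0.48 ± 0.09 (adjusted p = 0.00386) in hypoxia, and each of these calls held with every library left out in turn.

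Fbxl4 encodes a mitochondrial receptor that restrains mitophagy by turning over the receptors BNIP3 and NIX. Its levels were 4.77, 5.59 and 4.89 FPKM in DMSO normoxia, 7.73, 6 and 8.88 in DMSO hypoxia, 4.49, 5.46 and 4.84 in MLN4924 normoxia and 6.99, 6.36 and 6.74 in MLN4924 hypoxia. Hypoxic libraries lay above the normoxic ones under both treatments. It rose by 0.48 ± 0.13 log2 units (adjusted p = 0.0151) in DMSO and by 0.38 ± 0.13 log2 units (adjusted p = 0.046) with MLN4924, the first of these calls was lost without DMSO normoxia replicate 1 (adjusted p = 0.0547), and the second when any of 9 of the 12 libraries was left out. The transcripts of its substrates rose too, as in the paragraph on substrates: Bnip3 went from 172 ± 7.77 to 844 ± 229 FPKM in DMSO (log2 fold change 2.26 ± 0.14, adjusted p = 2.43e-06).

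Fbxo44, of the group with a glycoprotein-binding (FBA) domain, lay at 3.81, 3.61 and 3.39 FPKM in DMSO normoxia, 4.66, 4.67 and 4.48 in DMSO hypoxia, 2.37, 2.16 and 2.61 in MLN4924 normoxia and 3.97, 3.69 and 3.42 in MLN4924 hypoxia. Hypoxia and normoxia did not overlap under either treatment, and the MLN4924 normoxia libraries were the lowest. It rose by 0.28 ± 0.09 log2 units (adjusted p = 0.0325) in DMSO, a call lost with each of 5 libraries left out, and by 0.47 ± 0.09 log2 units (adjusted p = 0.00296) with MLN4924, and it fell with MLN4924 in normoxia (-0.45 ± 0.09 log2 units, adjusted p = 0.00562).

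Fbxo22 fell under both treatments. It lay at 29.4, 27.5 and 27.9 FPKM in DMSO normoxia, 21.9, 17.6 and 17.7 in DMSO hypoxia, 27.5, 27.8 and 28.7 in MLN4924 normoxia and 18.97, 15.4 and 16.8 in MLN4924 hypoxia. All 6 hypoxic libraries lay below all 6 normoxic ones. The log2 fold change was -0.55 ± 0.09 (adjusted p = 0.00135) in DMSO and -0.69 ± 0.09 (adjusted p = 0.000444) with MLN4924, while MLN4924 itself gave -0.015 in normoxia (95% interval -0.22 to 0.19) and -0.15 in hypoxia (95% interval -0.36 to 0.058), neither past the threshold.

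Fbxo9, a receptor for the mTOR complex partners TEL2 and TTI1, lay at 14.6, 16.3 and 15.1 FPKM in DMSO normoxia, 9.67, 11.6 and 9.12 in DMSO hypoxia, 12.7, 11.9 and 11.02 in MLN4924 normoxia and 9.33, 8.26 and 7.94 in MLN4924 hypoxia. Normoxia and hypoxia did not overlap under either treatment. It fell with hypoxia in DMSO (-0.56 ± 0.10 log2 units, adjusted p = 0.00164) and with MLN4924 (-0.44 ± 0.10 log2 units, adjusted p = 0.00772), and with MLN4924 in normoxia (-0.35 ± 0.10 log2 units, adjusted p = 0.0311), a call lost with each of 5 libraries left out.

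Fbxo3, whose product turns over the receptor FBXL2, was the other gene called in all 4 comparisons, each time lower. It lay at 9.87, 9.88 and 9.25 FPKM in DMSO normoxia, 7.24, 7.27 and 7.39 in DMSO hypoxia, 7.16, 7.35 and 7.82 in MLN4924 normoxia and 5.48, 4.84 and 4.21 in MLN4924 hypoxia. Both single exposures gave nearly the same level, and the combined exposure lay below every other library. The log2 fold change was -0.36 ± 0.09 (adjusted p = 0.00954) with hypoxia in DMSO, -0.54 ± 0.09 (adjusted p = 0.00126) with hypoxia under MLN4924, -0.34 ± 0.09 (adjusted p = 0.0206) with MLN4924 in normoxia and -0.51 ± 0.09 (adjusted p = 0.00187) with MLN4924 in hypoxia. The call in normoxia was lost with each of 4 libraries left out, and the other 3 held with every library left out.

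Fbxo33, a receptor for the cold shock domain protein YB-1, lay at 4.18, 5.44 and 4.88 FPKM in DMSO normoxia, 3.46, 3.58 and 3.59 in DMSO hypoxia, 4.9, 4.46 and 3.79 in MLN4924 normoxia and 2.5, 2.58 and 3.16 in MLN4924 hypoxia. Hypoxic libraries were lower under both treatments without overlap. It fell by 0.35 ± 0.12 log2 units (adjusted p = 0.0393) in DMSO, and the call was lost with each of 7 libraries left out, with an adjusted p of 0.0618 without DMSO hypoxia replicate 1. With MLN4924 it fell by 0.52 ± 0.12 log2 units (adjusted p = 0.00766).

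**Figure D2:**
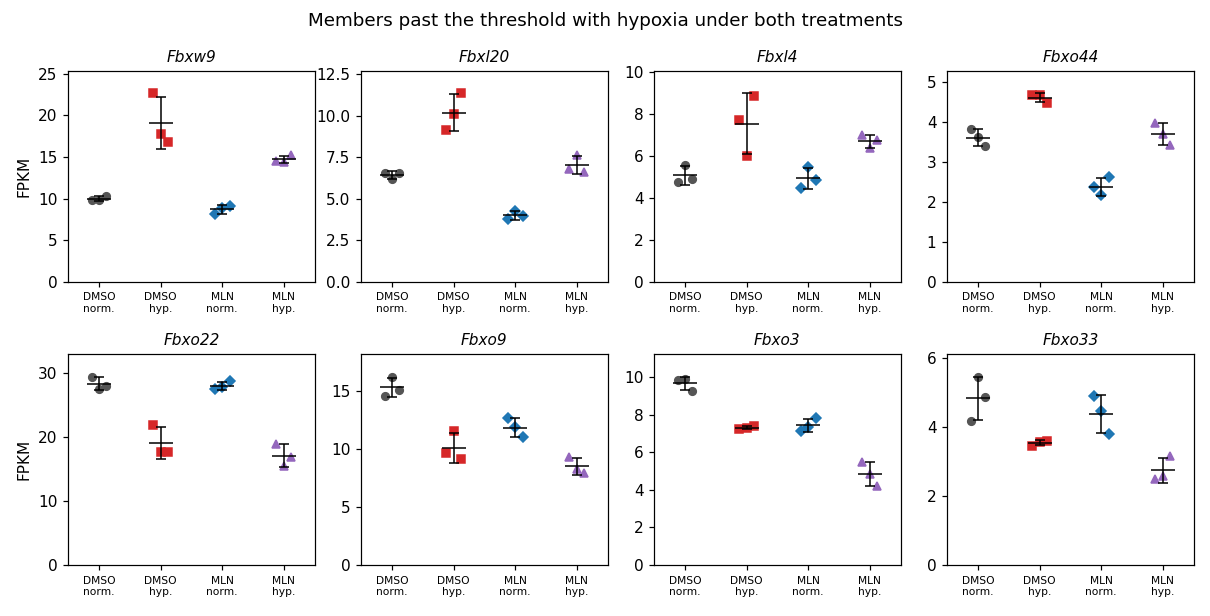
Levels in FPKM of the 8 F-box genes that passed the threshold with hypoxia under both treatments; points are libraries, bars the mean ± SD of 3 libraries in each of the 4 groups. The upper 4 genes rose and the lower 4 fell, and Fbxo22 in hypoxia lay below all normoxic libraries.

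The promoters of these 8 genes were searched because their transcripts passed with hypoxia under both treatments, 4 rising and 4 falling, and hypoxia-inducible factors bind DNA at a short core. The letters ACGTG and GCGTG were searched on both strands of windows of 300 bases, 250 before and 50 after the transcript start, from RefSeq on build GRCm38.p6; overlapping matches were each counted. Of the 52 genes, 39 had a window, and 29 of their 56 windows (51.8%) held at least 1 match, against 63.1% of the windows of all tested genes. Windows with at least 3 matches made up 14.3% of those of the F-box genes and 16.5% of those of all tested genes. Windows were at hand for 4 genes that rose in both comparisons and 3 that fell. Among the 4 that rose, 3 of 6 windows held a match, and among the 3 that fell, 3 of 4 did. A match is a description of letters, not of a bound site. These 3 windows are shown for the range they span, from a rising gene with no match to a window of a falling gene with 3, with matches on either strand in capitals. The window of Fbxl20 (chr11:98149567-98149866, minus strand) held 2 matches, that of Fbxw9 (chr8:85059869-85060168, plus strand) held 0, and the first of the 2 windows of Fbxo9 (chr9:78109016-78109315, minus strand) held 3. The other window of Fbxo9, not shown, held 0.
Fbxl20: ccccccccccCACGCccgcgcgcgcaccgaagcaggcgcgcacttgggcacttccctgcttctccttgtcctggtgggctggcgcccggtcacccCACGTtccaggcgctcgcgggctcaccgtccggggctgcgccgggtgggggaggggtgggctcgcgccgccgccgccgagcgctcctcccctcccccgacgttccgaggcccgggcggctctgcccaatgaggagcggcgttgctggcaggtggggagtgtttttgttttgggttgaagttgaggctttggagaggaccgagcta
Fbxw9: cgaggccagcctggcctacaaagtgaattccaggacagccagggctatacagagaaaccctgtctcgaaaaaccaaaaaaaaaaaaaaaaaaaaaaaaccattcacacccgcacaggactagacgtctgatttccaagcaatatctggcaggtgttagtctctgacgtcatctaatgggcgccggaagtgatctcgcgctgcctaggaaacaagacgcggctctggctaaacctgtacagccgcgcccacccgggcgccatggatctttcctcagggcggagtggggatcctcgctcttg
Fbxo9: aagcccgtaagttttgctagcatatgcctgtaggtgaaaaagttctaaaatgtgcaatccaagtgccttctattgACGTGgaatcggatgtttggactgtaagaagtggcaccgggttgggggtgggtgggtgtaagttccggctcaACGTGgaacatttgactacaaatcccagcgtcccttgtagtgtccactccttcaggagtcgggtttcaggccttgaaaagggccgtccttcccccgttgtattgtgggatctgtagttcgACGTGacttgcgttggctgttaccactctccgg

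Other genes passed with hypoxia under a single treatment, and none of the differences between treatments passed the test given further on. In DMSO, Fbxo4, described as a receptor for cyclin D1, lay at 9.45, 11.7 and 11.2 FPKM in normoxia and 19.1, 15.4 and 16.3 in hypoxia, where no libraries overlapped, and it rose by 0.61 ± 0.12 log2 units (adjusted p = 0.0037). With MLN4924 its levels were 8.96, 7.93 and 8.39 and 10.3, 11.2 and 8.28, which overlapped. Fbxw17 lay at 8.13, 7.75 and 8.76 FPKM in DMSO normoxia and at 5.85, 5.04 and 5.29 in DMSO hypoxia and fell by 0.53 ± 0.11 log2 units (adjusted p = 0.00415); with MLN4924 it was at 5.63, 4.78 and 5.98 in normoxia and 5.46, 4.46 and 5.74 in hypoxia, which overlapped each other and DMSO hypoxia.

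Fbxl5, the iron and oxygen sensor, lay at 10.6, 13.3 and 15.1 FPKM in DMSO normoxia, 18.3, 15.5 and 17.4 in DMSO hypoxia, 14.6, 15.7 and 14.6 in MLN4924 normoxia and 15.1, 13.4 and 12.97 in MLN4924 hypoxia. The DMSO libraries did not overlap, with 1 normoxic library well below the others of its group. It rose in DMSO by 0.38 ± 0.12 log2 units (adjusted p = 0.0294), but the call was lost without DMSO hypoxia replicate 1 (0.33, adjusted p = 0.0622) and without each of 3 other libraries. With MLN4924 the hypoxia difference was -0.11 (95% interval -0.37 to 0.15). The interaction was -0.49 (95% interval -0.85 to -0.12), at an unadjusted level that did not survive adjustment over all genes (adjusted p = 0.197).

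The last 3 calls in DMSO rested on scattered or low values. Fbxl21 was listed at 0.28, 0 and 0.41 FPKM in DMSO normoxia and 1.02, 0.73 and 2.16 in DMSO hypoxia; the groups did not overlap and the log2 fold change was 0.87 on the FPKM + 1 scale. It reached the minimum of 1 FPKM in 3 libraries, all of them hypoxic, so it could be tested only because of high hypoxic values, and its place among the 8 is a description. Its call was lost with a pseudocount of 0.1 and with each of 3 libraries left out. Fbxo6, like Fbxo2 a receptor for glycoproteins, lay at 11.6, 14.3 and 13.7 in DMSO normoxia and 1.67, 11.2 and 5.42 in DMSO hypoxia, where the lowest was the library that stood apart. It fell, at -1.25 ± 0.41 log2 units (adjusted p = 0.0399); this became -0.68 (adjusted p = 0.0465) without that library, and the call was lost with each of 10 other libraries left out. Fbxw4, which encodes dactylin, lay at 4.21, 6.05 and 5.09 and 9.05, 7.86 and 5.82, with overlap, and its rise of 0.48 ± 0.17 log2 units (adjusted p = 0.0467) was lost with 10 of 12 libraries left out, that library among them (adjusted p = 0.12).

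With MLN4924, hypoxia also raised receptors that did not pass in DMSO, at levels from that of Fbxl2 to that of Fbxo25. Fbxo36 lay at 0.85, 1.14 and 0.78 FPKM in MLN4924 normoxia and 1.64, 2.69 and 2.3 in MLN4924 hypoxia and rose by 0.73 ± 0.17 log2 units (adjusted p = 0.00934); in DMSO it lay at 1.89, 2.45 and 1.58 and 3.71, 3.21 and 2.49, with a difference of 0.48 (95% interval 0.10 to 0.85). Fbxo48 went from 2.92, 2.65 and 2 to 4.31, 4.84 and 5 FPKM, without overlap, a rise of 0.71 ± 0.19 log2 units (adjusted p = 0.0176), lost with each of 3 libraries left out. Fbxl8 went from 4.09, 5.49 and 4.43 to 8.17, 7.36 and 7.88 FPKM, a rise of 0.64 ± 0.14 log2 units (adjusted p = 0.00584). Fbxl12 went from 2.45, 1.77 and 1.49 to 3.06, 3.56 and 3.42 FPKM, again without overlap, a rise of 0.59 ± 0.16 log2 units (adjusted p = 0.0177), lost with each of 4 libraries left out. The remaining rises were smaller or at lower levels, with log2 fold changes of 0.55 for Fbxl2, 0.29 for Fbxo32 and 0.26 for Fbxo25, and these calls were lost with each of 4, 9 and 5 libraries left out. In DMSO the hypoxia differences of Fbxo48, Fbxl8 and Fbxl12 were 0.40, 0.36 and 0.27. Those of Fbxl2, Fbxo32 and Fbxo25 were -0.020, 0.21 and 0.15. The DMSO libraries did not overlap for Fbxl8, Fbxo32 and Fbxo25, and overlapped for Fbxo48, Fbxl12 and Fbxl2.

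Fbxl15, Fbxo28 and Fbxo31 fell with hypoxia under MLN4924 and did not pass in DMSO. Fbxl15, a receptor for the ubiquitin ligase SMURF1, lay at 16.9, 17.8 and 14.9 FPKM in DMSO normoxia, 21.2, 16.3 and 15.03 in DMSO hypoxia, 13.6, 10.7 and 11.5 in MLN4924 normoxia and 6.93, 8.79 and 8.94 in MLN4924 hypoxia. The MLN4924 hypoxia libraries lay below all others, and DMSO normoxia and hypoxia overlapped. With hypoxia under MLN4924 it fell by 0.49 ± 0.14 log2 units (adjusted p = 0.0266), a call lost with each of 3 libraries left out. Fbxo28, which acts on MYC without marking it for degradation, lay at 7.58, 7.02 and 7.9 in MLN4924 normoxia and 5.25, 5.28 and 5.27 in MLN4924 hypoxia, against 8.39, 9.22 and 8.29 and 8.49, 8.31 and 7.67 in DMSO. Its 3 MLN4924 hypoxia values were nearly equal and below all others, and the fall with hypoxia was -0.44 ± 0.07 log2 units (adjusted p = 0.00172).

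**Figure D3:**
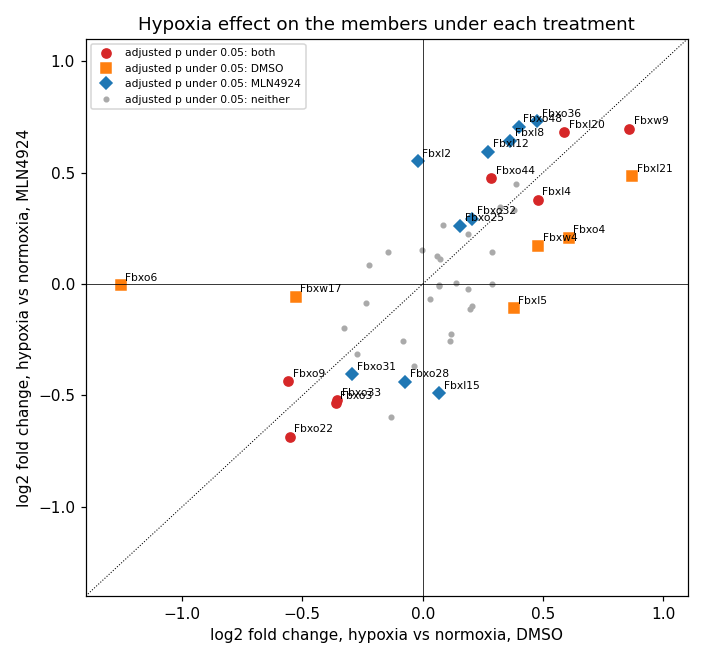
Log2 fold change with hypoxia in DMSO (x axis) against that with MLN4924 (y axis) for 51 of the 52 genes, on the FPKM + 1 scale; the dotted line marks equal values, and colours and symbols give the comparisons in which the adjusted p was under 0.05. The 8 genes called in both comparisons lie in the lower left and upper right, and Fbxo6 lies far to the left at -1.25 with almost no difference under MLN4924.

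MLN4924 in normoxia raised 2 of the 52 genes, Skp2 and Fbxo46, and lowered 8: Fbxl20, Fbxo36, Fbxw17, Fbxo2, Fbxo44, Fbxo9, Fbxo3 and Fbxo8. In hypoxia it raised 1, again Skp2, and lowered 10: Fbxl15, Fbxo2, Fbxo4, Fbxo8, Fbxo28, Fbxo3, Fbxl20, Fbxo31, Fbxw9 and Fbxw5. In normoxia the 10 calls were 19.2% of the genes, against 20.0% of all tested genes, with 3.85% higher against 9.33% and 15.4% lower against 10.7%. In hypoxia the 11 calls were 21.2%, against 25.5%, with 1.92% higher against 12.2% and 19.2% lower against 13.3%. The median log2 fold change of the 52 genes was -0.09 in normoxia and -0.14 in hypoxia, against -0.03 and -0.01 over all tested genes. The libraries did not overlap for 23 genes in normoxia, against 48.5% of all tested genes, and for 21 in hypoxia, against 38.0%. Without DMSO hypoxia replicate 1 the counts were 2 higher and 14 lower in normoxia, against 34.2% of all tested genes, with all 10 calls shared, and 2 higher and 9 lower in hypoxia, against 32.4%, with 10 of 11 shared.

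Of the 11 genes grouped as receptors in signalling and quality control, 4 fell with MLN4924 in normoxia and 6 in hypoxia, against 10.7% and 13.3% of all tested genes, and none rose in either; without DMSO hypoxia replicate 1, 7 and 6 fell. Of the 9 genes grouped under p53, chromatin and transcription factors, none passed in either, with or without that library. The difference between these groups was not tested. Of the 7 genes of cell cycle and growth control, Skp2 rose in both and Fbxo4 and Fbxo31 fell in hypoxia; without that library the rises and falls numbered 1 and 2 in normoxia, 2 and 1 in hypoxia. Of the 4 genes with an FBA domain, 2 fell in normoxia and 1 in hypoxia, with the same counts without that library. The 9 genes assigned to no group gave 1 rise and 2 falls in normoxia and 1 fall in hypoxia. Without that library these were 1 and 3 in normoxia and 0 and 1 in hypoxia. No gene of any other group passed in either, with or without that library. The MLN4924 comparisons share no library with each other. They shared Skp2 as a rise, which was 50% of the 2 rises in normoxia and 100% of the 1 in hypoxia, and Fbxl20, Fbxo2, Fbxo3 and Fbxo8 as falls, which were 50% of 8 and 40% of 10. Over all tested genes the shares were 64.7% and 49.6% for rises and 61.7% and 49.6% for falls.

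Skp2 was the receptor that rose with the inhibitor under both oxygen levels. It lay at 18.3, 16.4 and 17.7 FPKM in DMSO normoxia, 19.5, 17.8 and 17.5 in DMSO hypoxia, 23.5, 21.9 and 23.4 in MLN4924 normoxia and 24.3, 27.2 and 23.8 in MLN4924 hypoxia. All 6 MLN4924 libraries lay above all 6 DMSO libraries, and the hypoxic and normoxic libraries overlapped in DMSO. The log2 fold change was 0.37 ± 0.07 (adjusted p = 0.00491) in normoxia and 0.43 ± 0.07 (adjusted p = 0.00169) in hypoxia, and both calls held with every library left out in turn. Hypoxia gave 0.061 in DMSO (95% interval -0.10 to 0.22) and 0.12 with MLN4924 (95% interval -0.037 to 0.28).

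Fbxo46 was the other rise in normoxia, from 1.54, 1.98 and 1.59 to 2.64, 2.56 and 3.49 FPKM without overlap (0.52 ± 0.16 log2 units, adjusted p = 0.0387), a call lost with each of 7 libraries left out. In hypoxia it lay at 2.06, 1.91 and 3 with DMSO and 2.75, 2.5 and 3.43 with MLN4924, which overlapped.

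Fbxo2 had the highest receptor mean over the 12 libraries and in DMSO hypoxia, but not in the other groups. It lay at 26.8, 25.4 and 28.3 FPKM in DMSO normoxia, 40.04, 25.6 and 28.6 in DMSO hypoxia, 20.5, 17.7 and 19.4 in MLN4924 normoxia and 18.9, 18.02 and 16.3 in MLN4924 hypoxia. All MLN4924 libraries lay below all DMSO libraries. It fell by 0.46 ± 0.14 log2 units (adjusted p = 0.0382) in normoxia, a call lost with each of 8 libraries left out. In hypoxia it fell by 0.77 ± 0.14 log2 units (adjusted p = 0.00251), which held with every library left out. Fbxo8, whose product acts on the small GTPase ARF6, lay at 6.07, 5.65 and 5.52 FPKM in DMSO normoxia, 6.64, 6.27 and 6.02 in DMSO hypoxia, 4.14, 4.42 and 4.61 in MLN4924 normoxia and 3.23, 3.94 and 3.69 in MLN4924 hypoxia. Again no MLN4924 library reached a DMSO library, and the falls were -0.32 ± 0.09 log2 units (adjusted p = 0.0246) and -0.66 ± 0.09 log2 units (adjusted p = 0.000408), the first lost with each of 5 libraries left out.

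In normoxia Fbxo36 fell by 0.62 ± 0.17 log2 units (adjusted p = 0.0267) and Fbxw17 fell by 0.51 ± 0.11 log2 units (adjusted p = 0.0076), from the levels given above and without overlap, and the call of Fbxo36 was lost with each of 4 libraries left out. In hypoxia the largest fall among the called genes was that of Fbxl15, at -0.999 ± 0.14 log2 units (adjusted p = 0.000682). Fbxo4 also fell, at -0.72 ± 0.12 log2 units (adjusted p = 0.00192), as did Fbxo28, at -0.55 ± 0.07 log2 units (adjusted p = 0.00054). For these 3 the MLN4924 hypoxia libraries lay below all DMSO hypoxia libraries, and each call held with every library left out. Fbxw9 fell by 0.34 ± 0.10 log2 units (adjusted p = 0.0302) and Fbxw5 fell by 0.30 ± 0.09 log2 units (adjusted p = 0.0331), both with calls lost to each of 3 libraries left out. Fbxo31, a receptor for cyclin D1, lay at 6.72, 6.86 and 5.63 FPKM in DMSO normoxia, 5.2, 5.05 and 4.82 in DMSO hypoxia, 5.11, 5.03 and 5.51 in MLN4924 normoxia and 3.29, 3.41 and 4.46 in MLN4924 hypoxia. MLN4924 hypoxia was the lowest group, without overlap with the others. The fall with MLN4924 in hypoxia was -0.36 ± 0.11 log2 units (adjusted p = 0.0361), a call lost with each of 8 libraries left out, DMSO hypoxia replicate 1 among them (adjusted p = 0.0564). The fall with hypoxia under MLN4924 was -0.41 ± 0.11 log2 units (adjusted p = 0.0196), a call lost with each of 3 libraries left out.

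**Figure D4:**
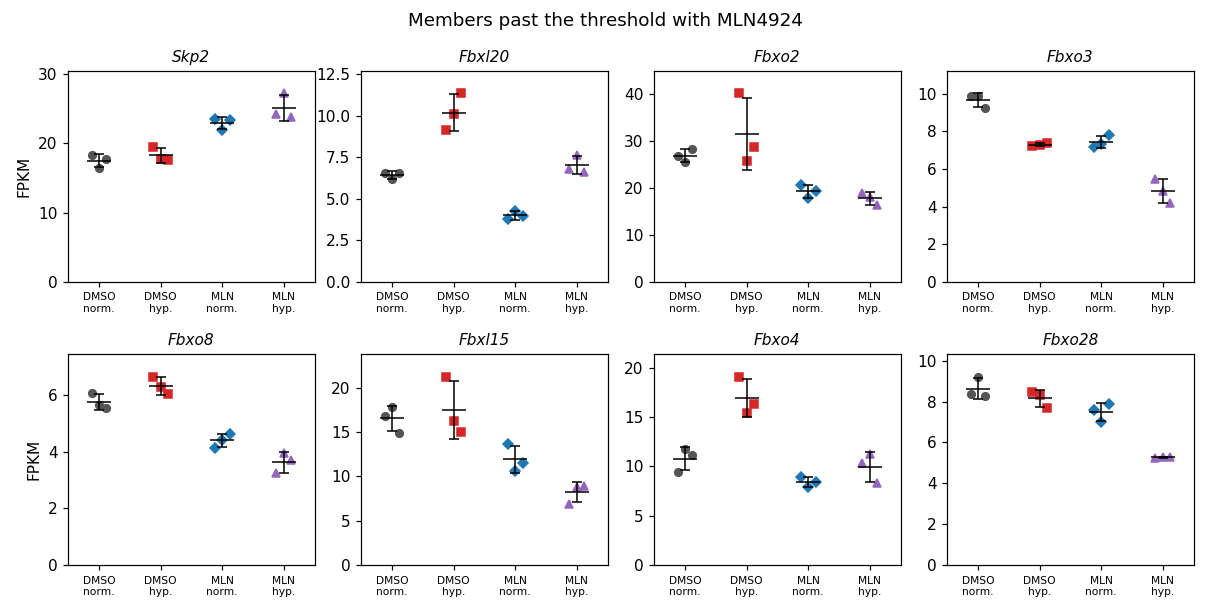
Levels in FPKM of 8 F-box genes that passed the threshold with MLN4924 under at least 1 oxygen level; points are libraries, bars the mean ± SD of 3 libraries in each of the 4 groups. Skp2 lay higher in all 6 MLN4924 libraries than in all 6 DMSO libraries, and Fbxo2 and Fbxo8 lay lower.

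Whether the inhibitor altered the hypoxia difference was asked with the interaction, which subtracts the hypoxia effect in DMSO from the one under MLN4924. None of the 52 genes passed, against 1.88% of all tested genes by the same limma test (0.958% higher and 0.926% lower). An unadjusted p under 0.05 was seen for 8 of the 52. The share of all tested genes at that unadjusted level was not computed, so this count has nothing to be read against. The median SE of the interaction over these genes was 0.18 log2 units, against 0.13 for the pairwise comparisons, so the interaction was the least precise of the 5 comparisons. The largest interaction was that of Fbxo6, at 1.25 (95% interval -0.051 to 2.55), which was 0.67 without DMSO hypoxia replicate 1. None passed without that library either, against 5.51% of all tested genes. Over the 4 pairwise comparisons, 23 of the 52 genes were called in none, 12 in 1, 12 in 2, 3 in 3 and 2 in 4. The same counts were not made over all tested genes, of which 20.0% to 33.2% were called in a comparison. They are therefore a description.

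**Figure D5:**
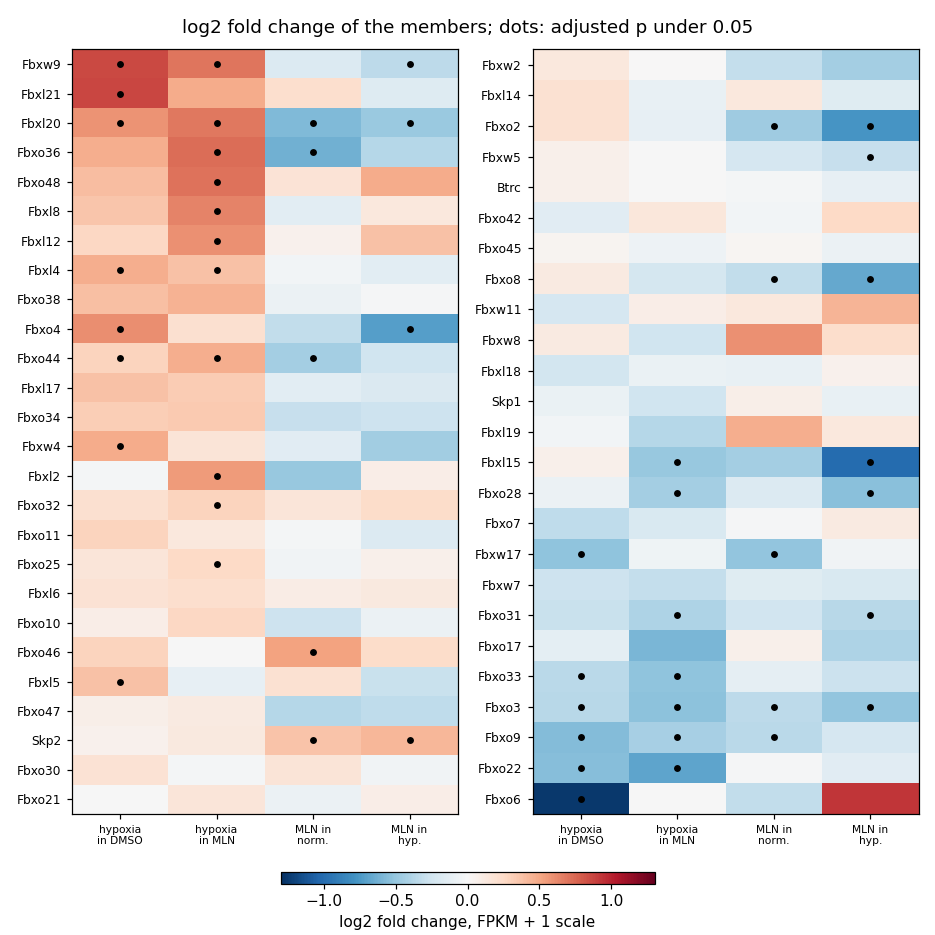
Log2 fold changes on the FPKM + 1 scale of 51 of the 52 genes in the 4 pairwise comparisons, as colours from blue (lower) to red (higher), ordered by the mean of both hypoxia comparisons; black dots mark an adjusted p under 0.05. Fbxl20 and Fbxo3 carry a dot in all 4 columns.

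Several of the best studied receptors passed no comparison, and their intervals give the size of change the data leave room for. Btrc and Fbxw11 encode the pair of beta-TrCP proteins, receptors for IkappaB and beta-catenin. Btrc lay between 10.2 and 12.5 FPKM over the 12 libraries, with log2 fold changes of 0.066 (95% interval -0.12 to 0.25) and -0.0091 (95% interval -0.20 to 0.18) for hypoxia in DMSO and with MLN4924. For MLN4924 it gave -0.028 (95% interval -0.22 to 0.16) in normoxia and -0.10 (95% interval -0.29 to 0.086) in hypoxia. Fbxw11 lay at 19.3 ± 0.965, 16.9 ± 4.86, 21.3 ± 2.09 and 22.6 ± 0.841 FPKM in DMSO normoxia, DMSO hypoxia, MLN4924 normoxia and MLN4924 hypoxia; the value of 11.4 in DMSO hypoxia replicate 1 was the lowest of all 12. With MLN4924 in hypoxia its log2 fold change was 0.44 (95% interval 0.062 to 0.82, adjusted p = 0.0847), and the libraries of the 2 groups did not overlap. The other differences were -0.22 (95% interval -0.60 to 0.16) for hypoxia in DMSO, 0.13 (95% interval -0.25 to 0.51) for MLN4924 in normoxia and 0.086 (95% interval -0.29 to 0.46) for hypoxia under MLN4924.

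Fbxw7, a receptor for cyclin E, MYC and Notch, was low, at 2.37 ± 0.7, 1.85 ± 0.893, 2.02 ± 0.58 and 1.51 ± 0.886 FPKM in the same order. All 4 groups overlapped, and the interval for hypoxia in DMSO was wide (95% interval -0.96 to 0.41). Fbxo7, which binds parkin and the proteasome regulator PI31, lay at 7.503 ± 2.17, 5.797 ± 1.74, 7.28 ± 1.15 and 6.19 ± 0.575 FPKM in the same order, with -0.33 (95% interval -0.81 to 0.16) for hypoxia in DMSO.

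Fbxo32 encodes atrogin-1, which FOXO factors induce in wasting muscle. It was low, at 1.5, 1.51 and 1.32 FPKM in DMSO normoxia, 1.75, 1.65 and 2.06 in DMSO hypoxia, 1.63, 1.82 and 1.7 in MLN4924 normoxia and 2.33, 2.36 and 2.28 in MLN4924 hypoxia, where the last group lay above all other libraries. It rose with hypoxia under MLN4924 by 0.29 ± 0.10 log2 units (adjusted p = 0.0442), a call lost with 9 of 12 libraries left out. Of 7 FOXO and atrophy genes tested, Fbxo32 included, 2 rose and none fell with hypoxia in DMSO (Ddit4 by 1.95 and Foxo3 by 0.77 on the log2 scale), and 3 rose and none fell with hypoxia under MLN4924, with the same counts without DMSO hypoxia replicate 1, against 13.8% higher and 19.4% lower of all tested genes in DMSO and 11.7% and 16.5% with MLN4924.

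Genes of the SCF core that passed with hypoxia were mostly lower. Of 16 genes of the SCF core and its regulators, 1 rose and 5 fell with hypoxia in DMSO, and none rose and 7 fell with hypoxia under MLN4924, against the shares of all tested genes given above. Without DMSO hypoxia replicate 1 these counts were 2 and 8, and 0 and 10, where 38.7% and 42.6% of all tested genes passed. Cul1, the scaffold, fell from 38.8 ± 0.25 to 31.8 ± 1.01 FPKM in DMSO (-0.28 ± 0.06 log2 units, adjusted p = 0.00412) and from 36.8 ± 1.90 to 28.1 ± 1.46 with MLN4924 (-0.37 ± 0.06 log2 units, adjusted p = 0.000866). Cand2, of the CAND family that exchanges receptors on CUL1, fell from 10.6 ± 0.396 to 5.35 ± 1.87 in DMSO (-0.92 ± 0.18 log2 units, adjusted p = 0.00337). Cops5, the catalytic subunit of the signalosome that removes NEDD8, fell by 0.40 on the log2 scale under both treatments, and Glmn, an inhibitor of RBX1, fell by 0.67 log2 units with hypoxia under MLN4924. With MLN4924 in normoxia 1 of the 16 passed, Cks1b, the cofactor of SKP2 in p27 binding (0.38 ± 0.12 log2 units, adjusted p = 0.0428); without that library 2 rose, Cks1b and Cand1, and 1 fell, Rbx1. In hypoxia 3 of the 16 fell with MLN4924, at log2 fold changes of -0.85 for Cks2, -0.45 for Rbx1 and -0.17 for Cul1; without that library 1 rose and 3 fell. Over the 16 genes the median log2 fold changes were -0.09 and -0.30 for hypoxia in DMSO and with MLN4924 and 0.08 and -0.12 for MLN4924 in normoxia and hypoxia, against -0.08, -0.05, -0.03 and -0.01 over all tested genes. With MLN4924, 9.33% of all tested genes rose and 10.7% fell in normoxia, and 12.2% and 13.3% did so in hypoxia.

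Of 13 neddylation enzymes, which overlap with the SCF list in Rbx1, Nedd8, Ube2m and Dcun1d1, 1 rose and 2 fell with hypoxia in DMSO, and 1 rose and 6 fell without DMSO hypoxia replicate 1. Uba3, the catalytic subunit of the enzyme that MLN4924 inhibits, rose by 0.48 ± 0.10 log2 units (adjusted p = 0.00339). With hypoxia under MLN4924 none rose and 2 fell, with log2 fold changes of -0.71 for Ube2f and -0.36 for Nedd8, and 1 rose and 5 fell without that library. With MLN4924 in normoxia none of the 13 passed by limma, and without DMSO hypoxia replicate 1 Nae1 rose (0.35, adjusted p = 0.00286) and Rbx1 fell (-0.28, adjusted p = 0.000224). In hypoxia 2 rose and 3 fell with MLN4924, and 2 and 2 without that library. Over the 13 genes the median log2 fold changes were -0.08 and -0.21 for hypoxia in DMSO and with MLN4924 and 0.09 and -0.12 for MLN4924 in normoxia and hypoxia. With hypoxia, 13.8% of all tested genes rose and 19.4% fell in DMSO, and 11.7% and 16.5% did so under MLN4924. With MLN4924, 9.33% rose and 10.7% fell in normoxia, and 12.2% and 13.3% did so in hypoxia. Without DMSO hypoxia replicate 1, 38.7% and 42.6% of all tested genes passed with hypoxia, and 34.2% and 32.4% with MLN4924.

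F-box genes filed under other names were compared as a check on the naming rule. Of 5 tested, Fbxo5, which encodes the APC/C inhibitor EMI1, rose from 14.4 ± 0.549 to 23.4 ± 3.86 FPKM with hypoxia in DMSO (0.65 ± 0.10 log2 units, adjusted p = 0.000593) and to 21.1 ± 0.465 with MLN4924 in normoxia (0.52 ± 0.10 log2 units, adjusted p = 0.00371). Ccnf, which encodes cyclin F, rose with MLN4924 in normoxia (0.33 ± 0.08 log2 units) and fell with hypoxia under MLN4924 (-0.37 ± 0.08 log2 units), and Fbh1, an F-box helicase, fell with MLN4924 in normoxia (-0.42 ± 0.11 log2 units). Leaving out DMSO hypoxia replicate 1 gave 2 rises and no fall with hypoxia in DMSO, 3 rises and 2 falls for MLN4924 in normoxia, and 1 of each in the other 2 comparisons. Of all tested genes, 33.2% passed with hypoxia in DMSO, 20.0% with MLN4924 in normoxia, 25.5% with MLN4924 in hypoxia and 28.2% with hypoxia under MLN4924. Without that library the shares were 38.7%, 34.2%, 32.4% and 42.6% in the same order.

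Receptors of other cullins, which MLN4924 also disables, were set beside the F-box genes. Of 23 tested, 8 rose and 3 fell with hypoxia in DMSO, 3 rose and none fell with MLN4924 in normoxia, 3 rose and 5 fell with MLN4924 in hypoxia, and 3 rose and 6 fell with hypoxia under MLN4924. Leaving out DMSO hypoxia replicate 1 gave, in that order, 7 and 3, 3 and 1, 4 and 5, and 4 and 6. Of all tested genes 13.8% rose and 19.4% fell in the first comparison, 9.33% and 10.7% in the second, 12.2% and 13.3% in the third and 11.7% and 16.5% in the fourth. Over the 23 genes the median log2 fold changes were 0.15, -0.0054, -0.12 and -0.0052. Vhl, the receptor for hydroxylated HIF alpha subunits on CUL2, rose from 16.2 ± 0.743 to 30.4 ± 4.45 FPKM with hypoxia in DMSO (0.86 ± 0.09 log2 units, adjusted p = 5.79e-05) and from 14.8 ± 0.375 to 23.0 ± 0.448 with MLN4924 (0.60 ± 0.09 log2 units). Lrr1, another CUL2 receptor, fell with hypoxia, at log2 fold changes of -1.36 in DMSO and -1.25 with MLN4924. Socs2, a CUL5 receptor, rose with MLN4924 in normoxia from 7.68 ± 0.637 to 13.2 ± 2.05 FPKM (0.70 ± 0.11 log2 units, adjusted p = 0.00137).

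Transcripts of 26 genes whose proteins are known F-box substrates were read as levels of RNA, which say nothing of the stability of the proteins. With hypoxia in DMSO 6 rose and 8 fell. Cdkn1a (p21, a target of SKP2) went from 16.9 ± 1.21 to 161 ± 8.45 FPKM, Bnip3l (NIX) rose by 1.60 on the log2 scale, and Ccnd1 (cyclin D1) fell from 53.3 ± 0.738 to 20.4 ± 4.32 FPKM. With MLN4924 in normoxia 5 rose and 9 fell. Myc, a target of FBXW7 and SKP2, rose from 8.13 ± 1.03 to 23.8 ± 0.331 FPKM (1.45 ± 0.13 log2 units, adjusted p = 5.02e-05), Bcl6, a target of FBXO11, fell from 5.00 ± 0.497 to 1.45 ± 0.116, and Per2, a target of beta-TrCP, fell by 1.16 on the log2 scale. In hypoxia 8 rose and 10 fell with MLN4924, and with hypoxia under MLN4924 8 rose and 8 fell. When DMSO hypoxia replicate 1 was left out, these rises and falls became 6 and 9, 7 and 11, 7 and 12, and 8 and 11 in the order given. Their medians on the log2 scale were -0.15, -0.17, -0.04 and 0.02 in that order, beside the shares and medians of all tested genes given above. As a check of the labels, all 6 hypoxia-responsive genes (Adm, Vegfa, Bnip3, Pgk1, Ndrg1 and Ankrd37) rose with hypoxia under both treatments.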

How the data were processed

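RNA of 12 libraries of GC-2 cells, 3 in each of 4 groups, was sequenced in pairs of reads, per the labels' protocols. The values are FPKM, computed and deposited by the authors; fastp, STAR and RSEM 1.3.3 and build mm39 are named in the submitters' processing notes, without their roles or order. The annotation, strandedness and any filter were not given in the sources used here. FPKM carries no counts, so the depth of each library is unknown and no counting interval is given; every column was used, and no pair of columns was identical. The effect of strand and of close paralogs on the values was not tested.

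From these values, log2(FPKM + 1) was fitted with limma 3.58.1 in R 4.3.3 to the 12311 genes with at least 1 FPKM in 3 libraries, with 1 mean per group, a spread shared over the 4 groups and a trend in the prior variance. Two-sided p-values were adjusted (Benjamini-Hochberg) over all tested genes of a comparison, with a threshold of 0.05, and "rose" or "fell" is written of genes past it. An added 1 FPKM makes fold changes of low genes smaller than their ratio. An exact permutation test of 3 against 3 libraries cannot go below 0.1. Genes were named by a fixed list of 12 and, per comparison, as the 6 largest rises and falls past the threshold, and up to 4 per related list were named in the same way. Fbxl2, Fbxo10, Fbxo25, Fbxo34, Fbxo47, Fbxw5, Fbxw8, Vegfa, Uchl1, Dcun1d1, Nedd8 and Ube2m fall outside that rule and were named after their values were seen. A gene of the fixed list enters the counts but is not reported here. Members and lists were chosen with earlier results of these data known, so their counts are read beside those of all tested genes. Transcript lengths, used for a check of the libraries, are those of GENCODE M21 and matched 12003 of the tested genes by symbol. Promoter coordinates are on GRCm38.p6, not on the build of the files. Alternatives changed the pseudocount, the filter, the scaling, the weights, the groups in the fit, a replicate block, and left out each library in turn.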

Additional observations from a re-analysis of the deposited data

Results flagged for a closer look

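None of the 52 F-box genes had a hypoxia difference that depended on the treatment beyond the threshold. Among the related genes and markers 8 did, by the same limma interaction (in log2 units, the hypoxia effect in DMSO subtracted from the one under MLN4924), and each also passed without DMSO hypoxia replicate 1. Of all tested genes 1.88% passed, and 5.51% without that library. Those that passed were 1 of 16 SCF core genes, 2 higher and 2 lower of 26 substrate genes, 1 of 6 hypoxia-responsive genes, 1 of 2 Leydig and 1 of 7 fibroblast markers. None passed of 13 neddylation enzymes and 23 receptors of other cullins. The difference from the F-box genes was not tested. Cks2, a small partner of cyclin-dependent kinases, had -0.995 ± 0.20 (adjusted p = 0.0365): it went from 160.3 ± 1.99 to 257 ± 68.1 FPKM with hypoxia in DMSO and from 177 ± 4.16 to 140 ± 9.63 with MLN4924, and the interaction was -0.79 without that library. Cdkn1a had -1.15 ± 0.09 (adjusted p = 0.000852), rising under both treatments from a higher normoxic level with MLN4924, at 32.6 ± 1.44 against 16.9 ± 1.21 FPKM. Jun had -0.47 ± 0.08 (adjusted p = 0.0151) and Adm had -1.34 ± 0.18 (adjusted p = 0.00576), both rising under both treatments. Cdt1 had 0.37 ± 0.08 (adjusted p = 0.0449), at 43.3 ± 2.51 and 46.2 ± 1.7 FPKM in DMSO normoxia and hypoxia and 38.2 ± 0.571 and 53.2 ± 1.86 with MLN4924. Cry2 had 0.69 ± 0.13 (adjusted p = 0.0273): it fell from 3.29 ± 0.286 to 2.44 ± 0.248 FPKM with hypoxia in DMSO and rose from 2.30 ± 0.0404 to 3.26 ± 0.05 with MLN4924. Star had 2.13 ± 0.44 (adjusted p = 0.0408) and Acta2 had 1.02 ± 0.12 (adjusted p = 0.00257), and Acta2 lay at 371 ± 8.38 FPKM in MLN4924 normoxia against 52.5 ± 2.30 in DMSO normoxia.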

How the results depend on the processing

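Of the 14 F-box genes called with hypoxia in DMSO, the number became 8 with no filter on low values and 7 with a fit of the 2 groups alone, and 8 to 14 with a library left out, the lowest without DMSO normoxia replicate 1. With MLN4924 in normoxia the 10 became 6 with no filter, 17 with array weights and 4 to 16 with a library left out, the highest without DMSO hypoxia replicate 1 and 4 to 6 without any of the 6 normoxic libraries. With MLN4924 in hypoxia the 11 became 7 in the fit of 2 groups. With hypoxia under MLN4924 the 18 became 11 among genes with a mean of at least 5 FPKM and 10 to 22 with a library left out, at 10 without MLN4924 normoxia replicate 3 and 11 without MLN4924 hypoxia replicate 2. Calls that held with each of the 12 libraries left out were 7 of 14, 4 of 10, 8 of 11 and 10 of 18 in the order hypoxia in DMSO, MLN4924 in normoxia, MLN4924 in hypoxia and hypoxia under MLN4924. None of the 52 genes passed the interaction under any alternative run; of the F-box genes under other names, Ccnf passed without DMSO hypoxia replicate 1 (-0.49, adjusted p = 0.0426). Over all tested genes, the fit of 2 groups gave 2224, 4068 and 1264 calls for hypoxia in DMSO, MLN4924 in normoxia and MLN4924 in hypoxia, where the fit of 4 groups gave 4093, 2467 and 3137. Array weights gave 4524 with MLN4924 in normoxia, 5339 with hypoxia under MLN4924 (3473 as reported) and 843 for the interaction (232 as reported). With a library left out the ranges were 1676 to 4215, 2523 to 5242 and 90 to 678 for the same comparisons, 3017 to 4768 for hypoxia in DMSO and 2151 to 3993 for MLN4924 in hypoxia. The highest of each of these 5 ranges was without DMSO hypoxia replicate 1. The cause of these differences was not tested, beyond the smaller number of samples or genes in some settings.

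No strong pairing by library number was seen: over 18 pairs with the same number, deviations correlated from -0.07 to 0.10, and 0 of the pairs passed 0.1. Over 36 pairs with different numbers they ran from -0.09 to 0.10. The correlations are over all tested genes, so a deviation shared by few genes would not show, and pairing is not excluded. A fit with the replicate number as a block called 10, 9, 9 and 15 F-box genes in the order above, and 132 genes of all tested for the interaction.

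Of 95 named log2 fold changes followed, 50 past the threshold as reported, no value past the threshold changed sign. Differences that were not past it and lay near 0 did. Skp1 gave 0.0604 with array weights for MLN4924 in hypoxia. With quantile normalization Btrc gave 0.014 for MLN4924 in normoxia and 0.035 for hypoxia under MLN4924, Fbxl4 gave 0.031 and Fbxo7 0.041 for MLN4924 in normoxia, and Fbxo32 gave -0.0203 for the interaction. With median-of-ratios scaling Btrc gave 0.041 for hypoxia under MLN4924, and Fbxo7 gave 0.0045 and Fbxo22 0.0076 for MLN4924 in normoxia. With a library left out, Skp1 ran from -0.26 to 0.0064 for hypoxia in DMSO, from -0.18 to 0.079 for MLN4924 in hypoxia and from -0.26 to 0.0027 for the interaction. Btrc ran from -0.083 to 0.044 for MLN4924 in normoxia and from -0.051 to 0.046 for hypoxia under MLN4924. Fbxw11 ran from -0.39 to 0.0198 for hypoxia in DMSO. Fbxw7 ran from -0.32 to 0.0052 and from -0.46 to 0.077 for MLN4924 in normoxia and hypoxia, and from -0.30 to 0.23 for the interaction. Fbxl4 ran from -0.10 to 0.021 for MLN4924 in normoxia and from -0.23 to 0.014 for the interaction. Fbxo7 ran from -0.19 to 0.17 and from -0.098 to 0.28 for MLN4924 in normoxia and hypoxia, and from -0.083 to 0.30 for the interaction. Fbxo22 ran from -0.034 to 0.013 for MLN4924 in normoxia.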
